A study of Mus musculus with 18 samples.

Results

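The 10 genes described here, Gata4, Gata6, Sox17, Foxa2, T, Pax6, Sox1, Nkx2-5, Tbx5 and Otx2, encode transcription factors that direct or mark a germ layer of the early embryo. They were chosen by name, and 9 of the 10 were found among the 22350 protein-coding genes of GENCODE vM1 on the autosomes and the X chromosome. Sox1 had no model of that name there and was placed by an exact match of its RefSeq promoter to the NCBIM37 sequence, so it is given beside the other 9 and not in their counts. CpG methylation was read by whole-genome bisulfite sequencing in mouse embryonic stem cells, in which a floxed Dnmt1 gene can be removed by a Cre recombinase that 4-hydroxytamoxifen switches on. The 18 libraries came from days 1, 3, 6, 9 and 11 of induction, with 9 libraries labelled wild type (control) and 9 labelled Dnmt1 KO, in 2 replicates per genotype and day except for 1 at day 6. Dnmt1 is the enzyme that copies methylation onto the new strand after replication. All labels name the strain E14, while the methods describe the floxed line as C57BL/6, and at day 1, before most of the loss, the autosomal methylation was 70.1% in Dnmt1 KO and 76.1% in control (means of 2 libraries each). Nothing in the labels says that replicates were separate cultures, and p-values measure the spread between these libraries only.

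In embryonic stem cells these genes are mostly silent and stand ready for later activation. Their starts usually lie in CpG islands that carry no DNA methylation and are held by Polycomb group proteins, and around many developmental regulators the unmethylated stretch runs on for several kilobases as a valley, while most CpGs elsewhere in the genome are methylated. GATA4, GATA6, SOX17 and FOXA2 direct endoderm, T (Brachyury) directs primitive streak and mesoderm, NKX2-5 and TBX5 direct the heart, and PAX6, SOX1 and OTX2 direct neural ectoderm, with OTX2 also at work in the epiblast.

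The contrasts that the measurements turn on can be seen in short stretches of the NCBIM37 sequence, each of 300 bases written 5′ to 3′ on the strand of its gene, with every CpG in capitals. The 300 bases before the start of T lie at chr17:8626988-8627287 (+ strand) and are shown as a start inside a valley. They hold 20 CpGs, at which 0 of 4 calls at day 1, 0 of 45 control calls and 0 of 26 Dnmt1 KO calls of days 3 to 11 were methylated.
T: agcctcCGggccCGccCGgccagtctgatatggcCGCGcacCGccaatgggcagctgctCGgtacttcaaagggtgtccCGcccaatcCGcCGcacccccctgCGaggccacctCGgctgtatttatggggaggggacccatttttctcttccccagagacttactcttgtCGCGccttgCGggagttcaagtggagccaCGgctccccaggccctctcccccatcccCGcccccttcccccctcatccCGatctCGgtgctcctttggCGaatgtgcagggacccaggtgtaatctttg
Gata4 is shown at 2 of its annotated starts, because they differed. The outermost start, preceded by chr14:63890530-63890829 (- strand), had 7 CpGs and was methylated at 5 of 5 calls at day 1 and 23 of 23 control calls of days 3 to 11, against 3 of 10 Dnmt1 KO calls. An inner start, preceded by chr14:63864109-63864408 (- strand, within an intron of the longer transcripts), had 27 CpGs and was methylated at 0 of 45 calls at day 1, 1 of 38 control calls and 1 of 105 Dnmt1 KO calls.
Gata4 outermost start: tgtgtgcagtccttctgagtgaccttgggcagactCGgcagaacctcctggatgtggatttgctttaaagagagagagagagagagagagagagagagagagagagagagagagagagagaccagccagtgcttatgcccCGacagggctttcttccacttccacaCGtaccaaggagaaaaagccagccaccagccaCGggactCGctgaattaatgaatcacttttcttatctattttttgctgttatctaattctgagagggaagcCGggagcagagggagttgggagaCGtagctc
Gata4 inner start: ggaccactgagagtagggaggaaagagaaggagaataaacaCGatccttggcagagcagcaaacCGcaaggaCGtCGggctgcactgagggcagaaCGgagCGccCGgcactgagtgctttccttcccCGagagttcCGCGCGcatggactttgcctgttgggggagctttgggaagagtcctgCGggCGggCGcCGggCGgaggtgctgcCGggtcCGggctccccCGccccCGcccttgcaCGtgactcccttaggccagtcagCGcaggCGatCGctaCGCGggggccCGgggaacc
Tbx5 is shown at the stretch richest in CpGs, outside untranslated parts, of the 1 kb that held the most CpGs in its surroundings, because CpG-rich sequence was methylated there. The Tbx5 stretch at chr5:120287231-120287530 (+ strand) is intronic and holds 18 CpGs, with 2 of 7 calls at day 1, 45 of 76 control calls and 4 of 68 Dnmt1 KO calls methylated.
Tbx5: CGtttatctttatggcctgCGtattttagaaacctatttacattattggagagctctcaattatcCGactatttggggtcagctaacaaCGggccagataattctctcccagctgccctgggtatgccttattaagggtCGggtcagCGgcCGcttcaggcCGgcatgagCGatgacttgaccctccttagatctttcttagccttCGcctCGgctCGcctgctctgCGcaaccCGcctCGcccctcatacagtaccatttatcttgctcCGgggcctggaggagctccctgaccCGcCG

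Libraries held 7190722 to 11158414 calls, or 1.202 to 1.25 calls per listed cytosine, so that single CpGs were not compared and calls were summed over regions. Over days 3 to 11 the 7 control libraries had an autosomal methylation of 71.4% to 79.0% and the 7 Dnmt1 KO libraries 24.2% to 34.6%, which left 36.3% of the control mean. Mitochondrial CpGs, a background for incomplete conversion, were methylated at 0.228% to 0.467%. The deleted part of Dnmt1 (chromosome 9, 20744012 to 20745971) had 0 calls in Dnmt1 KO at days 3 to 11, 4 at day 1 and 6 to 29 in each control library, so all libraries matched their labels. Exact 95% intervals and limits of a count of 0 (3 calls) cover counting error only.

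The valley of each gene was delimited in the 4 libraries of day 1 together, when neither genotype had lost much methylation. It was the longest run of 1 kb bins under 15% methylation within the gene body and 5 kb on each side, followed outward where it went on. A valley was present at 8 of the 9 genes and at Sox1. Over all protein-coding genes 62.2% had a valley, with a median width of 2 kb. Of the 9 genes, 5 had a valley of at least 3 kb and 3 of at least 5 kb, against 11.9% and 2.06% of all genes, and the widest valley of any gene was 13 kb. Widths rest on pooled calls without replicate error and were not tested. Without control day 1 replicate 1 the widths of T and Foxa2 were 1 and 3 kb, Tbx5 had 1 bin under the limit, and without control day 1 replicate 2 Gata4 had 1 kb.

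Otx2, the head and forebrain gene, had the widest valley of the named genes, 8 kb with 287 CpGs (chromosome 14, 49281354 to 49289353); it began 2 kb before the gene start. Without bridging of single bins it measured 5 kb, less than the 6 kb of Gata6 under the same setting, and Foxa2 measured 3 kb. Gata6 on chromosome 18 had 6 kb with 333 CpGs and Foxa2 5 kb with 257 CpGs (chromosome 2, 147869613 to 147874612). Pax6, the eye and forebrain regulator, had 4 kb (chromosome 2, 105506053 to 105510052), and Sox1 also 4 kb (chromosome 8, 12394519 to 12398518) with 343 CpGs, the most of the 10. T had 3 kb (chromosome 17, 8625288 to 8628287). These 6 valleys covered the gene start.

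The remaining genes departed from that picture. Sox17 had a 2 kb valley at its start (chromosome 1, 4486009 to 4488008). At day 1 this valley stood at 0% and 8.62% in the Dnmt1 KO libraries and at 13.6% and 19.0% in the control libraries. In control alone its width was 0 kb at days 1 and 11, though the 9 control libraries together also gave 2 kb. A second unmethylated stretch of 2 kb lay 3 to 5 kb further into the gene, with 0 of 93 and 1 of 183 calls methylated in its bins at day 1. The 2 kb valley of Gata4 (chromosome 14, 63863759 to 63865758) did not lie at the outermost annotated start but about 3 neighbouring inner starts, among them the one shown above. From these 3 of the 7 annotated transcripts begin. The 1 kb valley of Nkx2-5 lay in the 3′ part of this short gene, while the bin at its start stood at 52.2% at day 1. Tbx5, the gene of the limb and heart field, had no bin run under 15%, and in its surroundings the 11 bins with at least 25 CpGs stood between 23.4% and 86.2% at day 1.

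**Figure D1:**
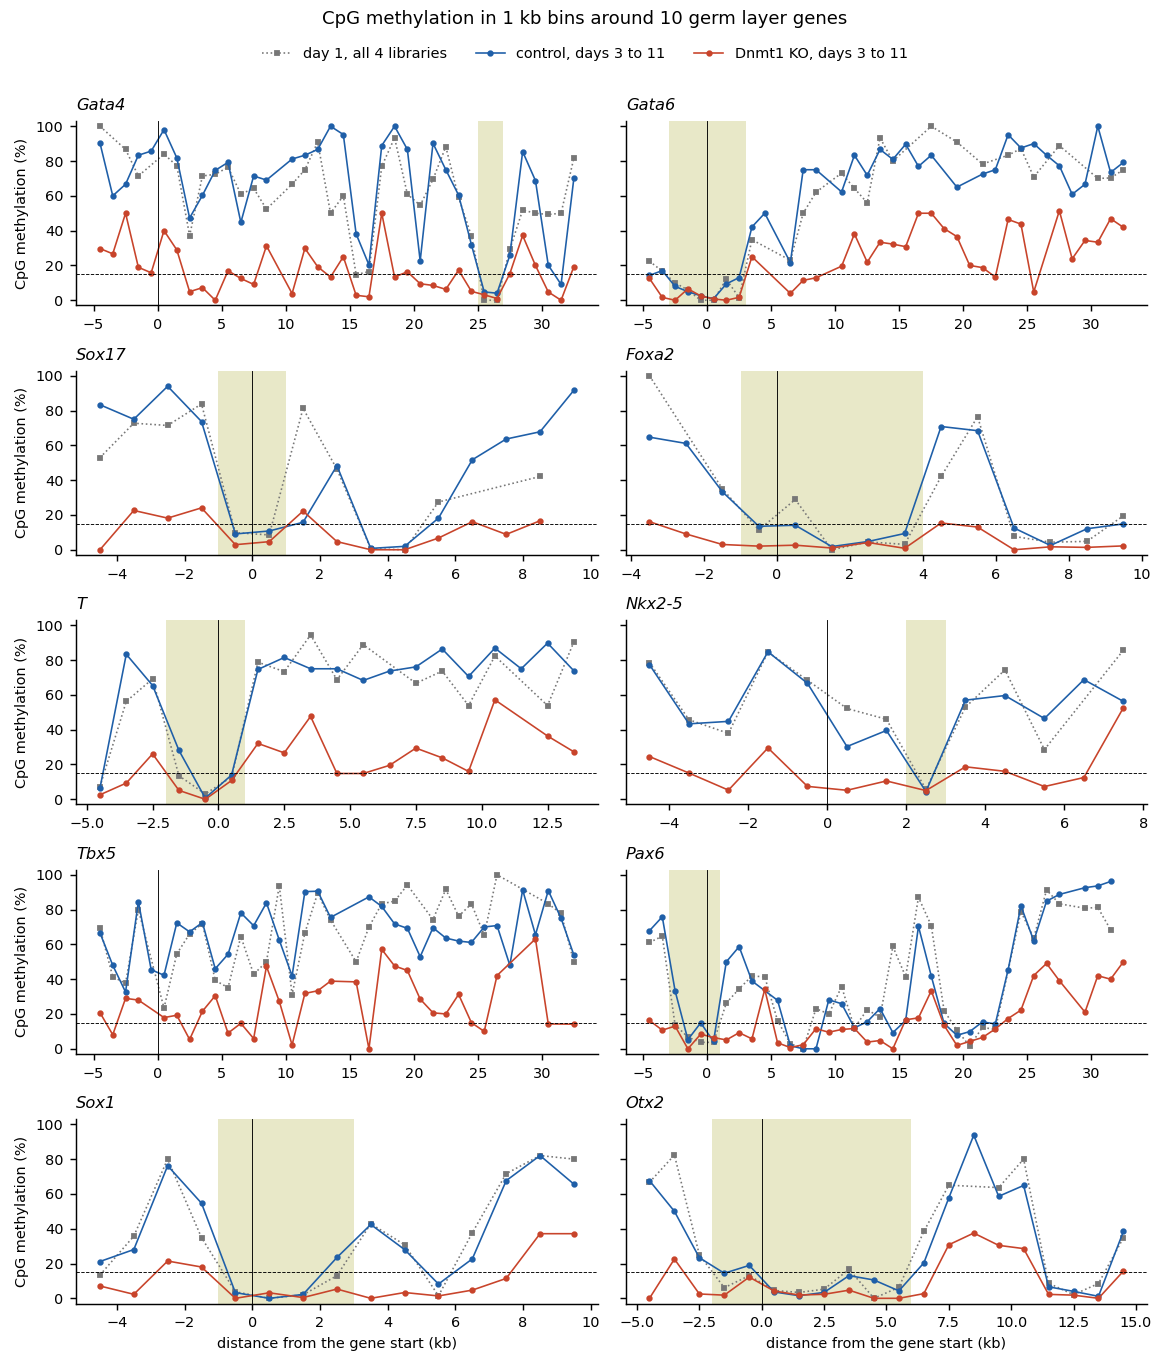
CpG methylation (%, vertical axis) in 1 kb bins against the distance from the outermost gene start in kb (horizontal axis, the gene running to the right, drawn to 33 kb at most) for each of the 10 genes. Grey dotted lines are the 4 libraries of day 1, blue the 7 control and red the 7 Dnmt1 KO libraries of days 3 to 11, all pooled and drawn for bins with at least 10 calls; shading marks the valley and the dashed line 15%. The red line lies below the blue line outside the valleys and close to it inside them, and Tbx5 has no shaded stretch.

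The loss in the whole surroundings of the genes, the gene body plus 5 kb on each side, was taken up first. At day 1 none of the 9 genes was called lower or higher in Dnmt1 KO (0 of 9 by the quasi-binomial test, 0 at an unadjusted p under 0.05 and 0 by limma), beside 3.15% of all genes called lower and 4806 of 20678 at an unadjusted p under 0.05. T stood at 47.1% in Dnmt1 KO and 41.8% in control, but its control libraries were at 35.8% and 53.1%, further apart than the genotypes. Measured within 1 kb bins, the difference of T at day 1 was -2.57 points, of the opposite sign. At days 3 to 11 methylation fell at 8 of the 9 genes and at Sox1, with an adjusted p of less than 0.05 and 10 percentage points or more between the genotypes. By the same rule 99.7% of all genes were called lower, so the count is near that background. The other tested gene, Otx2, differed by less than 10 points. Differences below are means over days with their standard errors, and adjusted p-values are Benjamini-Hochberg values over all 20678 tested genes. The standard errors were formed from the calls of each genotype and day, scaled by the spread between replicates, apart from the statistic behind the p-values. A genotype and day with 0 methylated calls adds nothing to them, so they are too small at such low levels.

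Among the endoderm genes, Gata4 had the highest starting level. Its control libraries of days 3 to 11 ranged from 54.2% through a median of 61.4% to 74.5%, and its Dnmt1 KO libraries from 14.6% through 17.7% to 29.7%. It fell by 44.0 ± 2.63 points (adjusted p = 5.75e-12), and the genotypes did not overlap. Gata6, which drives primitive endoderm, ranged from 38.1% through 43.1% to 57.5% in control and from 11.9% through 17.6% to 22.8% in Dnmt1 KO, again without overlap. It fell by 27.2 ± 2.72 points (adjusted p = 1.11e-08). Sox17, needed for definitive endoderm, ranged from 21.1% through 29.3% to 46.1% in control and from 1.28% through 8.20% to 24.1% in Dnmt1 KO. It fell by 20.8 ± 3.83 points (adjusted p = 2.68e-05), with 6 of 7 Dnmt1 KO libraries below every control library and Dnmt1 KO day 9 replicate 2 inside the control range. Foxa2, a pioneer factor of foregut and floor plate, started low, at 7.89% through 14.9% to 22.1% in control, and ranged from 2.22% through 2.75% to 3.81% in Dnmt1 KO. It fell by 13.03 ± 2.20 points (adjusted p = 4.74e-06) without overlap.

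Among the mesoderm genes, Tbx5, the gene without a valley, had a drop close to that of Gata4. Its control libraries ranged from 55.3% through 70.2% to 73.7% and its Dnmt1 KO libraries from 13.4% through 22.3% to 32.6%, and it fell by 46.1 ± 2.35 points (adjusted p = 6.25e-13). T, the primitive streak gene, ranged from 34.7% through 46.5% to 55.4% in control and from 12.1% through 15.7% to 23.4% in Dnmt1 KO. It fell by 29.4 ± 3.56 points (adjusted p = 5.27e-07). Nkx2-5, the cardiac homeobox gene, ranged from 31.7% through 42.7% to 58.0% in control and from 6.86% through 12.7% to 26.7% in Dnmt1 KO, and fell by 31.2 ± 3.63 points (adjusted p = 1.83e-07). In none of these 3 genes did the genotypes overlap, and 95.2% of all genes were without overlap by the same count.

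Among the ectoderm genes, Pax6 ranged from 27.9% through 29.6% to 35.5% in control and from 10.8% through 12.8% to 18.1% in Dnmt1 KO without overlap. It fell by 18.4 ± 1.73 points (adjusted p = 3.54e-09). Sox1, a neural plate gene, ranged from 16.4% through 20% to 31.1% in control and from 2.92% through 7.57% to 8.91% in Dnmt1 KO, and fell by 17.8 ± 2.35 points (adjusted p = 7.02e-07). Otx2 ranged from 10.3% through 13.8% to 20.5% in control and from 0% through 5.76% to 6.86% in Dnmt1 KO. Its difference of -9.09 ± 1.64 points had an adjusted p of 2.95e-05 and no overlap, but was under the limit of 10 points. As a share of control the Dnmt1 KO level of Otx2, 37.5%, lay within the 18.7% of Foxa2 to the 42.4% of Pax6.

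**Figure D2:**
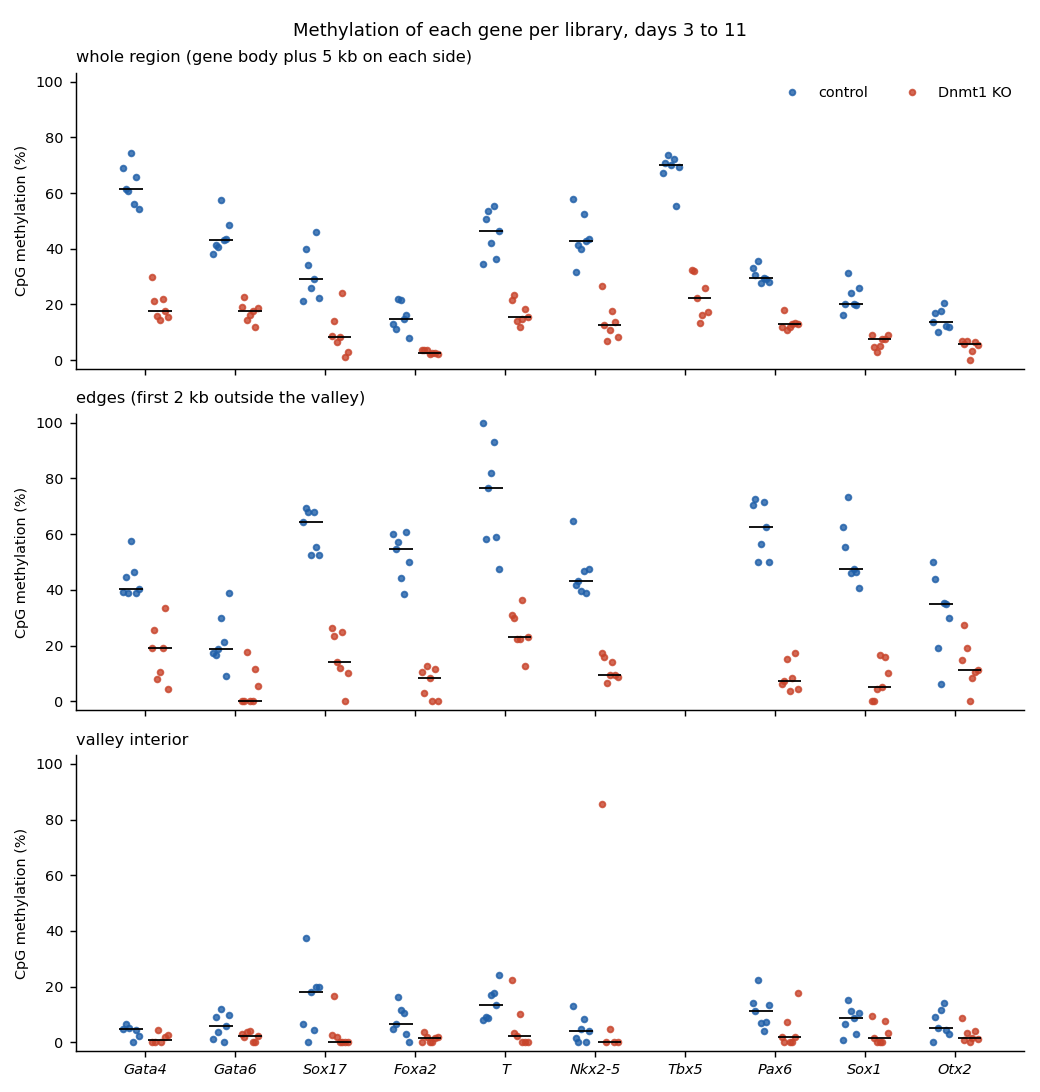
CpG methylation (%, vertical axis) of each gene (horizontal axis) in the 7 control (blue) and 7 Dnmt1 KO (red) libraries of days 3 to 11, for the whole region, the edges and the valley interior. Each point is 1 library, drawn in the order of the days, and black bars are medians. Blue and red points separate in the region at every gene but Sox17, and overlap in the interior at every gene; the red point at 85.7% in the Nkx2-5 interior holds only 7 calls.

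Summed over the 9 genes, the region stood at 43.9% in control and 41.0% in Dnmt1 KO at day 1. In Dnmt1 KO it went to 19.95% (day 3), 13.2% (day 6), 13.02% (day 9) and 13.2% (day 11), while the control groups of those days lay between 40.7% and 46.7%. The drop was thus made between day 1 and day 6, and the 4 Dnmt1 KO libraries of days 9 and 11 had a mean of 13.3% ± 1.83 (SD, n = 4). Over days 3 to 11 the Dnmt1 KO level was 34.0% of control for the 9 genes, beside 36.3% for the autosomes.

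The edges, the first 2 kb outside the valley on each side, were then read on their own. Since the valleys were delimited at day 1, the values of days 3 to 11 had no part in placing them. With at least 10 calls in every library 4 genes could be tested, Sox17, Gata4, T and Nkx2-5, and all 4 fell, beside 99.4% of all tested genes. Of these 4, the edges of T lost the most in points. As a share of control they kept 32.8%, beside 25.6% at Sox17, 25.9% at Nkx2-5 and 38.0% at Gata4. The T edges ranged from 47.6% through 76.5% to 100% in control and from 12.5% through 23.1% to 36.4% in Dnmt1 KO. They fell by 51.5 ± 7.57 points (adjusted p = 1.31e-07). Those of Sox17 ranged from 52.4% through 64.5% to 69.2% in control and from 0% through 13.95% to 26.3% in Dnmt1 KO and fell by 46.1 ± 6.75 points (adjusted p = 1.67e-07). For Nkx2-5, whose edges include its start, the ranges were 38.7% through 43.0% to 64.7% and 6.56% through 9.52% to 17.2%, and the fall was by 33.8 ± 4.92 points (adjusted p = 1.51e-08). Gata4 edges fell by 29.6 ± 5.32 points (adjusted p = 8.89e-06). None of these 4 genes overlapped between the genotypes, which held for 62.7% of all tested genes.

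The other valleys had thinner edges and were tested with at least 1 call in every library, where 99.1% of all tested genes were called. Pax6 edges fell by 50.2 ± 5.99 points (adjusted p = 6.34e-09), Sox1 edges by 48.0 ± 6.41 (adjusted p = 5.80e-07), Foxa2 edges by 46.2 ± 8.27 (adjusted p = 3.94e-07) and Otx2 edges by 16.4 ± 6.57 (adjusted p = 0.00858). The Otx2 edges overlapped widely, at 6.25% to 50% in control and 0% to 27.3% in Dnmt1 KO, and 1 of 7 Dnmt1 KO libraries lay below every control library. Gata6 was not called. Its edges, which are still CpG-rich upstream, ranged from 9.09% through 18.6% to 38.9% in control and from 0% through 0% to 17.8% in Dnmt1 KO, and the difference of -12.7 ± 4.38 points had an adjusted p of 0.109, with 5 of 7 Dnmt1 KO libraries below every control library. Libraries had as few as 2 calls there, and days with 0 methylated calls in Dnmt1 KO made this standard error too small.

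Inside the valleys little methylation was left to lose. The 4 genes and Sox1 with at least 10 calls in every library had control levels between 5.74% and 12.6% as means over days. Foxa2 went from 8.62% to 1.68% (-6.94 ± 1.99 points, adjusted p = 0.0222), Pax6 from 12.6% to 4.91% (-7.74 ± 2.79 points, adjusted p = 0.0437), Otx2 from 7.09% to 2.67% (-4.42 ± 1.48 points, adjusted p = 0.0345) and Sox1 from 8.57% to 2.07% (-6.51 ± 1.75 points, adjusted p = 0.00901). Gata6, at 5.74% and 2.41%, did not pass (adjusted p = 0.0675). So 3 of 4 genes fell, beside 25.8% of all tested genes, but the libraries of the genotypes overlapped at every gene (4.57% of all tested genes had no overlap), and the calls depended on the processing and on single libraries. With at least 1 call in every library 1 of 6 genes was called, beside 15% of all tested genes, and Pax6 (adjusted p = 0.0777) and Otx2 (adjusted p = 0.0640) no longer passed. At days 9 and 11 the valley of Pax6 stood at 7.49% in Dnmt1 KO and 7.27% in control, with 13 of 73 calls methylated in Dnmt1 KO day 11 replicate 2. With a replicate block none was called, with adjusted p-values of 0.115 for Foxa2, 0.119 for Pax6, 0.233 for Otx2 and 0.182 for Sox1. Leaving out each of the 18 libraries in turn lost the call of Pax6 in 11 cases, of Otx2 in 7, of Foxa2 in 5 and of Sox1 in 4. Without either library of day 6 the difference of Foxa2 was -4.50 points and that of Sox1 -3.55 points, and without Dnmt1 KO day 1 replicate 2, when 1 bin less belonged to its valley, that of Sox1 was -0.998 points. Without control day 3 replicate 2 that of Otx2 was -2.81 points. Gata6 passed without control day 1 replicate 1, control day 3 replicate 1 or control day 9 replicate 2. The valley of Nkx2-5, at 4.42% in control and 5% in Dnmt1 KO, was too thinly covered for the test. Its Dnmt1 KO level rested on day 3 replicate 1, with 6 of 7 calls methylated, and was 2.07% (4 of 193 calls) without it.

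**Figure D3:**
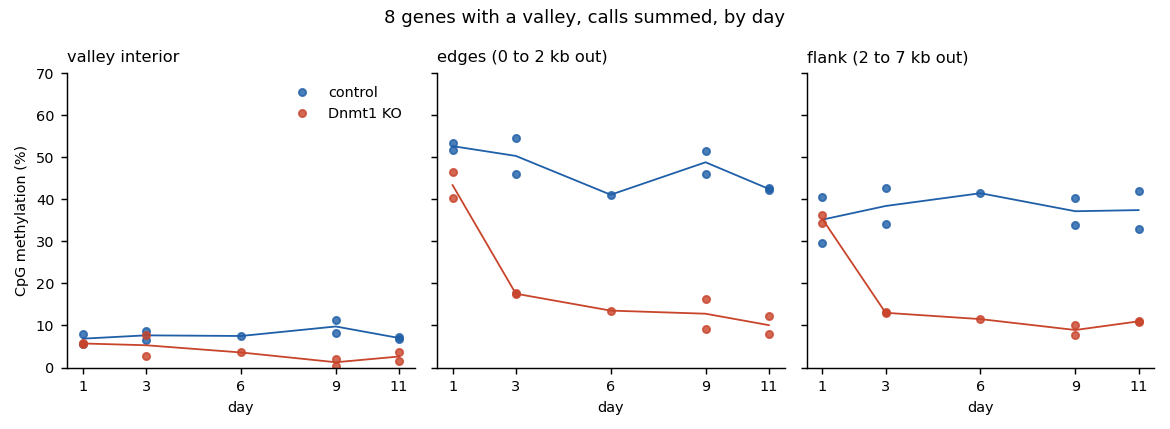
CpG methylation (%, vertical axis) by day (horizontal axis) with the calls of the 8 genes that have a valley summed, in the interior, the edges and the flank 2 to 7 kb out. Each point is 1 library, control blue and Dnmt1 KO red, and lines join the means. Edges and flank drop between days 1 and 3 in Dnmt1 KO, from 42.9% to 17.6% at the edges with the calls of the libraries pooled, while the interior is low in every library.

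The 3 compartments of the 8 genes with a valley can be set side by side over days 3 to 11. The interior went from 8.06% in control to 3.14% in Dnmt1 KO, the edges from 45.6% to 13.4% and the flank 2 to 7 kb out from 38.3% to 11.06%. The level kept was 38.9% of control in the interior, 29.4% at the edges and 28.9% in the flank. At days 9 and 11 alone the shares were 26.5%, 23.3% and 26.8%, so the interior did not stand apart from the flank there. At day 1 the edges were at 46.5% and 40.3% in the Dnmt1 KO libraries and at 53.5% and 51.9% in the control libraries. The edges were placed from these same libraries, so this is not an independent reading, and the sum was not tested. The gap differed by gene. Gata6 edges were then at 7.41% and 10% in Dnmt1 KO and at 35.8% and 34.8% in control. Pax6 edges were at 60% and 42.1% in Dnmt1 KO and at 32.1% and 38.1% in control. The upstream edge kept 24.96% and the downstream edge 34.9% of control, and at days 9 and 11 alone they kept 23.4% and 23.7%.

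Seen from the valley border, the surroundings of these genes were less methylated than those of all other genes with a valley. Such levels were not particular to them. At the edges, with at least 1 call in every library, the control median was 49.2% over the 8 genes, 46.7% over 38 other regulators of the germ layers and 51.2% over 11 signalling genes. It was 57.7% over 15 housekeeping genes and 60.3% over all genes. The whole regions, which include the valley and Tbx5, had a control median of 43.2% over the 9 genes. It was 35.5% over 42 other regulators, 41.1% over 12 signalling genes and 43.3% over 16 housekeeping genes. In control libraries of days 3 to 11, the bin next to the border stood at 39.7% at the 8 genes and 45.2% at other genes with a valley. In the fourth kb out the levels were 40.8% and 68.8%. The profile of the 8 genes also dipped and rose again, with further CpG-rich stretches of low methylation near Otx2, Pax6, Foxa2, Sox17 and T. In Dnmt1 KO at days 6 to 11, bins 1 to 10 kb from the border ranged from 7.08% to 17.9% at the 8 genes and from 10.1% to 21.7% at other genes. These levels were not tested against each other.

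**Figure D4:**
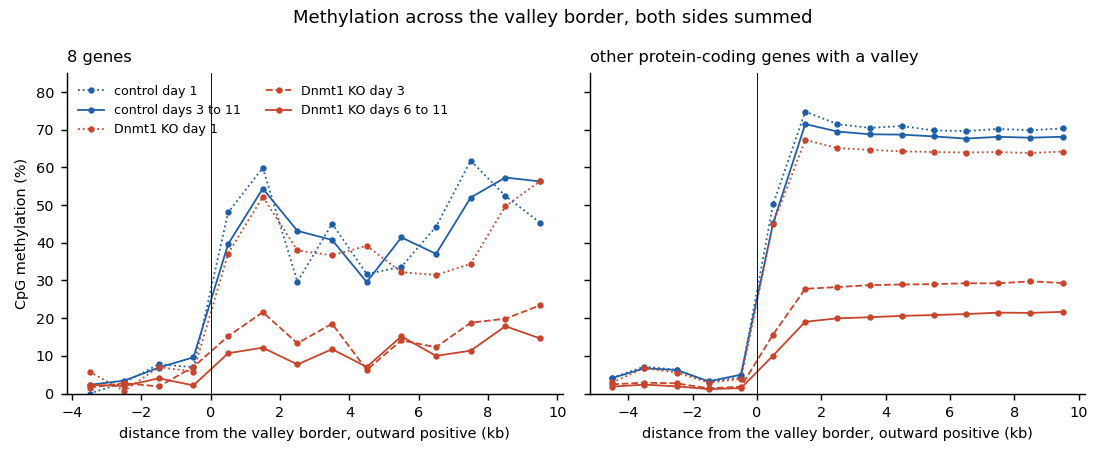
CpG methylation (%, vertical axis) against the distance from the valley border in kb (horizontal axis, inside the valley below 0, outside above 0, both sides summed), left for the 8 genes with a valley and right for all other protein-coding genes with one. Control is blue and Dnmt1 KO red, with dotted lines for day 1, a dashed line for Dnmt1 KO day 3 and solid lines for the later days named in the key. The step at the border flattens in Dnmt1 KO, and control levels beyond it are lower at the 8 genes, 40.8% against 68.8% in the fourth kb.

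Outside the valleys, bins were also split by CpG content. The 55 bins of the 9 genes with at least 25 CpGs went from 29.6% in control to 7.33% in Dnmt1 KO over days 3 to 11, and the 230 bins with fewer went from 73.1% to 25.8%. The level kept was 24.8% of control in the CpG-dense and 35.3% in the CpG-poor bins. This difference was not tested and was opposite at Sox17, with 50.6% kept in CpG-dense and 24.2% in CpG-poor bins, and at T, with 40.5% and 34.1%, where the CpG-dense part was 1 bin with 2 of 78 Dnmt1 KO and 5 of 79 control calls methylated. At days 9 and 11 alone it was opposite at Sox17, at Foxa2 (16.7% and 13.2%), at Pax6 (37.9% and 37.1%) and at Otx2 (37.7% and 32.8%). Tbx5 showed the contrast within a gene, with its 11 CpG-dense bins at 56.0% in control and 15.2% in Dnmt1 KO and its 50 CpG-poor bins at 77.4% and 29.8%. Its CpG-dense libraries ranged from 31.5% through 55.5% to 66.1% in control and from 8.02% through 10.9% to 25.7% in Dnmt1 KO and did not overlap. At Gata4 the 11 CpG-dense bins went from 36.0% to 6.26%, and those of Nkx2-5, 5 in number, from 42.6% to 10.4%.

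The stretch under 15% was also wider in Dnmt1 KO after day 1. The median width over the 8 genes was 2.5 kb in Dnmt1 KO at day 1 and 7.5, 8.5, 8 and 8 kb at days 3, 6, 9 and 11. In control it was 3, 3, 2, 3 and 2.5 kb at the 5 days. Day 6 had 1 library per genotype, so more bins missed the minimum of 5 calls and could end a run. All protein-coding genes with a valley had a control median of 1 kb at day 6 and 2 kb at the other days. All protein-coding genes with a valley had medians of 2, 3, 3, 4 and 5 kb in Dnmt1 KO. A fixed limit also widens a valley when the whole genome is lower. With a limit set at 20% of the autosomal level of the same genotype and day, the medians of the 8 genes in Dnmt1 KO were 2.5, 4, 5.5, 3 and 6 kb. Those in control were 3, 3, 2.5, 3 and 2.5 kb, and those of all genes in Dnmt1 KO 2, 2, 2, 3 and 3 kb. At day 9 the medians of the 8 genes were equal, but their widths summed to 49 kb in Dnmt1 KO and 29 kb in control. This limit is lower in Dnmt1 KO, where 1 methylated call can lift a thinly covered bin over it.

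The genes did not widen alike. Otx2 measured 8, 10, 13, 22 and 17 kb in Dnmt1 KO at days 1, 3, 6, 9 and 11, against 9, 7, 6, 3 and 8 kb in control. Pax6 measured 4, 14, 17, 10 and 15 kb against 3, 3, 1, 3 and 2 kb. At day 1 the bins 6 and 7 kb into Pax6 already stood at 3% and 0% apart from the valley at its start. After day 1 valleys were also narrower in Dnmt1 KO than in control in single cases. These were Nkx2-5 at day 3 (0 against 1 kb), Foxa2 at day 6 (1 against 2 kb) and, at day 9, Sox17 (5 against 6 kb) and Gata6 (6 against 7 kb). A run also ends at neighbouring bins with under 5 calls, so a narrower width need not mean more methylation. The Foxa2 valley at day 6 had 1 of 49 calls methylated in Dnmt1 KO and 14 of 86 in control. That of Sox17 at day 9 had 0 of 6 and 0 of 14 calls methylated in the Dnmt1 KO libraries. Gata6 edges at day 9 held 2 calls in each Dnmt1 KO library. The Nkx2-5 valley stood at 85.7% in Dnmt1 KO day 3 replicate 1. Gata6 stayed at 6 to 9 kb in both genotypes on all days, and T went from 1 kb to 5, 5, 3 and 7 kb, against 1 to 3 kb in control. Widths were followed from the valley of day 1, so none could be given for Tbx5. Of its bins with at least 5 calls, 9 of 47, 10 of 29, 17 of 36 and 12 of 41 stood under 15% in Dnmt1 KO at days 3, 6, 9 and 11, in runs of at most 3 kb, against 0 of 50, 0 of 25, 0 of 43 and 1 of 42 in control. With the limit relative to the genome, T and Pax6 were at 0 and 10 kb at day 9 and at 6 and 1 kb at day 11, so that single widths moved by several kb between days.

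**Figure D5:**
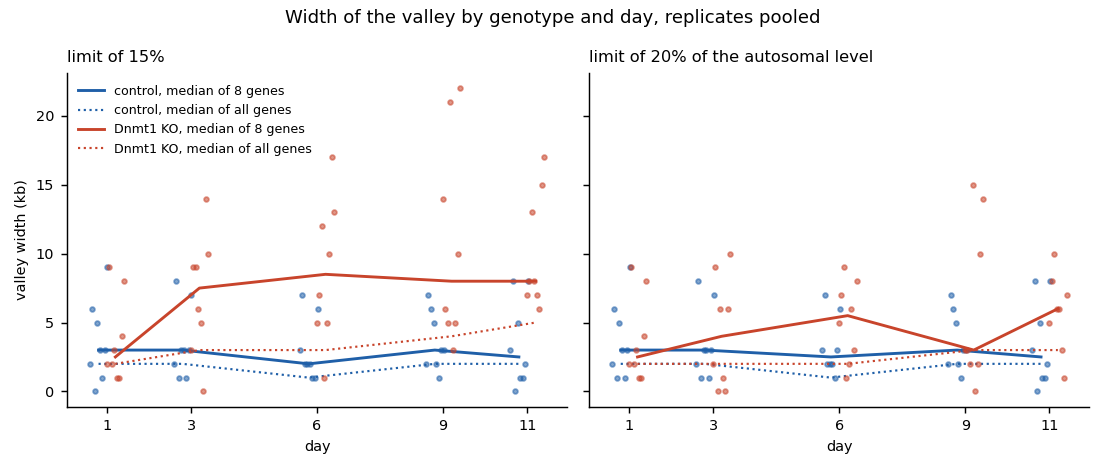
Width of the valley in kb (vertical axis) by day (horizontal axis), replicates pooled, with a limit of 15% (left) and a limit of 20% of the autosomal level of the same genotype and day (right). Points are the 8 genes, solid lines their medians and dotted lines the medians of all protein-coding genes with a valley, control blue and Dnmt1 KO red. The solid red line stands at 8 kb at day 11 on the left and at 6 kb on the right, and the solid blue line at 2.5 kb on both.

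Other gene lists set the widths in context. Of 42 other regulators of the germ layers 38 had a valley, with a median of 4 kb over those 38, and 16 measured at least 5 kb. Olig2, Lhx5 and Sox2 were the widest of them at 10 kb each, and Cer1, En1 and Msgn1 had none. Of 12 ligands and antagonists of gastrulation 11 had a valley, with a median of 2 kb, as did all 16 housekeeping genes, also with a median of 2 kb and with Eef2 the widest at 6 kb. Of 15 terminal lineage genes 5 had one, Nefl the widest at 4 kb. The widest valleys of any gene were those of Tcfap2a and Pou3f2 at 13 kb each. Otx1, Ehbp1, Cir1, Setd1b, Rhof and Msx1 followed at 12 kb and Bahcc1 and Sp9 at 11 kb. Some of these were the same stretch counted at neighbouring genes. The valley of Otx1 overlapped that of Ehbp1, that of Cir1 overlapped that of Sp9, and that of Setd1b overlapped that of Rhof. The regions of 39 of the 42 other regulators were called lower at days 3 to 11. Their median difference was -24.0 points, beside -27.2 points for the 9 genes and -44.9 points for all genes tested. The starting levels differed too, with control medians of 35.5%, 43.2% and 70.4% in that order. The Dnmt1 KO medians were 10.4%, 12.7% and 22.6%.

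Coverage of the genes was compared as the share of autosomal calls, Dnmt1 KO over control. At days 3 to 11 the share in a gene's region lay between 0.787 for T and 1.15 for Foxa2, and the ranges of the libraries overlapped at each of the 10 genes. In the valleys of those days the ratio ran from 0.546 for T to 1.28 for Gata4, with as few as 0 calls in a library at Gata4 and Nkx2-5. At day 1, when the valleys were delimited, the ratios ran wider, on fewer libraries and calls. The ratio for the region was 0.531 for Foxa2, 0.726 for Nkx2-5, 0.790 for Sox17 and 1.25 for Sox1, without overlap of the 2 libraries of each genotype. With 2 libraries per genotype such a separation is easily reached, and its share over all genes is not given here. In the valleys of day 1 the ratio ran from 0.538 for Foxa2 to 1.59 for Sox17. Differences measured within 1 kb bins and then averaged, which do not depend on where in a region the calls fell, were -44.6 points for Gata4, -44.0 for Tbx5, -30.0 for T and -9.45 for Otx2 over days 3 to 11, so the order of Gata4 and Tbx5 turned. At day 1 they were -2.57 for T, 1.09 for Pax6, -2.87 for Otx2 and -0.881 for Sox1, where the sums over the region gave 5.28, -0.413, -7.93 and -3.01. They were -11.5 for Tbx5, -7.18 for Foxa2 and -4.95 for Sox17, where the sums gave -7.60, -3.59 and -2.99, and the remaining 3 genes moved by less than 1 point.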

How the data were processed

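Per the methods, the authors trimmed paired reads with Trim Galore, aligned them to NCBIM37 with Bismark, removed duplicates and extracted CpG calls. The submitters' processing notes give Bismark 0.12.3, whereas the methods name another version. The deposited tables list, for each cytosine, the counts of calls read as methylated or not, and a deposited percent that equals their ratio, so only counts were used. The strands of a CpG were summed. Cytosines not in a CpG of NCBIM37 (0.101% to 0.120% of a library's entries) were dropped. The genes and lists were chosen with earlier results of these data known.

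Calls were summed in 1 kb bins counted from 5 kb before the gene. A valley was the longest run of bins under 15% in the 4 libraries of day 1, with a lone bin at or above that limit, or with under 10 calls, bridged, and the run was followed for up to 50 kb past the flank. The valley and its edges were thus set apart from the libraries of days 3 to 11 that were tested. Widths by genotype and day needed at least 5 calls in a bin. Dnmt1 KO was compared with control by a quasi-binomial test, a Cochran-Mantel-Haenszel statistic over days divided by a dispersion estimated within genotype and day over all 18 libraries and moderated with limma 3.58.1 in R 4.3.3 (F test, two-sided). Replicates of day 6 were assumed to vary like those of the other days. Genes needed at least 10 calls in every library and passed at an adjusted p (Benjamini-Hochberg, over all genes tested) under 0.05, with a difference of at least 10 points except inside valleys, where levels are low. Named were the 10 genes, the 10 genes with the widest valley, and the widest (3) and narrowest (3, ties by name) of the other germ layer regulators, with the widest housekeeping and terminal lineage gene. Scripts were tested on simulated data. Alternatives covered the test, a replicate block, the call minimum, a cap of 20 calls per cytosine, each library left out, the valley limit (10% and 20%), bridging, the libraries that delimit the valley, the annotated start and an edge of 1 or 3 kb. Differences within bins, the later days against day 1, the placing of Sox1, the bins of Tbx5 under 15% by day and the Nkx2-5 valley without 1 library were added after seeing the data.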

Additional observations from a re-analysis of the deposited data

Results flagged for a closer look

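The difference between Dnmt1 KO and control at days 3 to 11 was set against the same difference at day 1, in a test of the 2 differences on the libraries' spread with Benjamini-Hochberg adjustment over all genes, chosen after seeing the data. Its p-values were read from a normal distribution, which takes the estimated spread as known. They are therefore smaller than an F test like that used elsewhere would give, and a value close to 0.05, as at Foxa2, decides little. For the region, the later difference minus that of day 1 was -39.8 points at Gata4 (adjusted p = 2.02e-11), -38.5 at Tbx5 (adjusted p = 4.44e-14), -34.6 at T (adjusted p = 2.84e-05) and -26.8 at Nkx2-5 (adjusted p = 0.00415). It was -22.3 points at Gata6 (adjusted p = 0.000200), -18.0 at Pax6 (adjusted p = 1.09e-06), -17.8 at Sox17 (adjusted p = 0.0172), -14.8 at Sox1 (adjusted p = 0.00361) and -9.44 at Foxa2 (adjusted p = 0.0473). Otx2, at -1.16 points, did not pass (adjusted p = 0.789). At day 1 its 2 Dnmt1 KO libraries stood at 13.3% and 13.1% and its 2 control libraries at 25.3% and 17.0%. That difference was not called by the quasi-binomial test (adjusted p = 0.233). The control level of Otx2 was itself 21.1% at day 1 and 14.3% at days 3 to 11. Measured within 1 kb bins, the difference of Otx2 was -2.87 points at day 1 and -9.45 points at days 3 to 11, further apart than in the sums over the region. That of Foxa2 was -7.18 and -13.3 points, closer together than in the sums. These were not tested. Of all genes tested 94.9% passed in this direction.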

How the results depend on the processing

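The falls of the regions and edges at days 3 to 11 kept their direction at each tested gene under all alternatives that could be fitted, and each region or edge called with at least 10 calls in every library stayed called. No called result turned its direction. At day 1, where no gene was called, differences within 1 kb bins changed sign at T (5.28 to -2.57 points) and Pax6 (-0.413 to 1.09). The region of Otx2 passed the limit of 10 points, at -10.9 points, without either library of day 6. In the region at day 1, 663 genes were called over all genes (in either direction), 79 to 750 with a library left out. At the edges the count of genes called, 5044, was 16 of 17 with at least 30 calls, 13443 of 13571 with at least 1 call, 275 of 306 with an edge of 1 kb and 10556 of 10572 with 3 kb, and moved with the number tested. The interior was less stable. The 756 genes called there became 215 with at least 30 calls, 1192 with at least 1 call, 375 with a valley limit of 10%, 1148 with 20%, 462 without bridging, 469 with valleys from the 9 control libraries, 417 by limma and 496 to 890 with a library left out; the cause was not tested. The median valley width of the 9 genes, 3 kb, was 2 kb with a limit of 10% and with valleys from the 9 control libraries, and 2 to 3 kb with a library left out. Against a limit of 20% of the autosomal level the median of the 8 genes in Dnmt1 KO at day 11 was 6 kb in place of 8.

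Libraries of a day with the same replicate number did not deviate together gene by gene, with correlations of -0.0147, 0.00527, -0.0159 and -0.00478 at days 1, 3, 9 and 11. Such a correlation over genes cannot show an offset shared by a whole library, and thin calls weaken it. Whether the numbers pair the libraries is thus not settled. With a replicate block, 20616 regions, 5047 edges and 628 regions at day 1 were called, and 0 of 2933 interiors by the quasi-binomial test (954 at an unadjusted p under 0.05). Thin coverage limits the edges and interiors most, with single libraries at 0 to 12 calls for several genes.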
